A study of Homo sapiens with 6 samples.

Results

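Transcripts of 9 enzymes of the mevalonate pathway, ACAT2, HMGCS1, MVK, PMVK, MVD, IDI1, FDPS, FDFT1 and SQLE, were followed in MOLM-13 cells, an established line from a human acute myeloid leukaemia that carries a KMT2A-MLLT3 fusion. The members were the rows with these gene symbols. All 9 were found among the 56638 rows of the table, and all 9 passed the filter on low counts that left 13490 genes to test. Cells received 2 µM UC-764864, named in the series title as an inhibitor of the ubiquitin-conjugating enzyme UBE2N, or DMSO, the solvent, and poly(A) RNA was taken after 24 h from 3 libraries per group. Every library comes from the same cell line, and nothing in the labels says that libraries of a group were separate cultures, so the p-values rest on the spread among these libraries alone, and that spread may be technical. The series design text spells the compound UC-744864.

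The mevalonate pathway turns acetyl-CoA into the isoprenoid units from which squalene, and then cholesterol, is made, and it also feeds the synthesis of ubiquinone, dolichol and the lipid anchors of prenylated proteins. The members act in the order given, from the cytosolic thiolase ACAT2 to the squalene synthase FDFT1, and SQLE then oxidises squalene on the way to sterols. Genes of the pathway are classic targets of the sterol-sensing transcription factor SREBP2, which acts together with NF-Y, a factor that binds the CCAAT box.

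The sequences before the start sites are shown because SREBP2 and NF-Y are known to act there. The motifs and windows were picked with the members' values known, and no link between a motif and a change was tested. RefSeq start sites on GRCh38.p14 were at hand for 6 of the 9 members, and the 250 bases before each are printed in the direction of transcription, with capitals marking CCAAT or its reverse complement ATTGG. Where a gene has several start sites, the window nearest to the GENCODE v29 gene start is shown, which leaves out 1 window of HMGCS1 and 2 of IDI1.
HMGCS1 (chr5:43313413-43313662, minus strand): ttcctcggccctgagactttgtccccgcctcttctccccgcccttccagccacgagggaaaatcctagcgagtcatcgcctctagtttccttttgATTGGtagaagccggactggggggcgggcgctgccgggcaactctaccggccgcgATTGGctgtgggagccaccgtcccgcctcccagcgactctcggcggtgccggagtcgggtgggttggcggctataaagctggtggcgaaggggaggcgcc
MVK (chr12:109573544-109573793, plus strand): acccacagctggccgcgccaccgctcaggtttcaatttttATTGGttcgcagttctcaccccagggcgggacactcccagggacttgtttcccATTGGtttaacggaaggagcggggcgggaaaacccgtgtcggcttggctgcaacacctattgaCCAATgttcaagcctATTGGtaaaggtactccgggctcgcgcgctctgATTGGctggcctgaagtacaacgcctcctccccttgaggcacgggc
PMVK (chr1:154936720-154936969, minus strand): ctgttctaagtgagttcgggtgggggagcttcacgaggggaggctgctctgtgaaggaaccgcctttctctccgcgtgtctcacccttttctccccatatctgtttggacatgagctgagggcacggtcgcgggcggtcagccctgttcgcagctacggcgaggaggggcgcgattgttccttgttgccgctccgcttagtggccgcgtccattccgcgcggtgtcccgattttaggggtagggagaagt
MVD (chr16:88663092-88663341, minus strand): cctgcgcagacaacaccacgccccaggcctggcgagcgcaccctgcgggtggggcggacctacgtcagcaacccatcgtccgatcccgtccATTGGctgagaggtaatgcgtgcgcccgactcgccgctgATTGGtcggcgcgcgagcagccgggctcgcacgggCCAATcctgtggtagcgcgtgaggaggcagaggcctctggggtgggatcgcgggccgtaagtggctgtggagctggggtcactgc
IDI1 (chr10:1049120-1049369, minus strand): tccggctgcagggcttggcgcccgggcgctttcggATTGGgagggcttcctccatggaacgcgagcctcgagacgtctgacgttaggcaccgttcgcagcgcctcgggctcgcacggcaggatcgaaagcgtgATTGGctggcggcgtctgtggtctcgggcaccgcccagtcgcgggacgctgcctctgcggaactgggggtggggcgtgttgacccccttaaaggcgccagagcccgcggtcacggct
FDPS (chr1:155308616-155308865, plus strand): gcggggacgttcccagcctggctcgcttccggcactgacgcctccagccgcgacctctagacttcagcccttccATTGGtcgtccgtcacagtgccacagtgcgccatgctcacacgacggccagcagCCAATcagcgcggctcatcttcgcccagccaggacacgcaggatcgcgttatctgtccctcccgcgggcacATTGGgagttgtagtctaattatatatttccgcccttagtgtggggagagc
The window of MVK held 5 of these boxes, those of MVD and FDPS 3 each, those of HMGCS1 and IDI1 2 each, and that of PMVK 0. The windows of PMVK and MVK lie wholly inside their GENCODE v29 genes. Those genes start at base 154936991 for PMVK, on the minus strand, and 109573255 for MVK. Bases before these 2 GENCODE starts were not read, so the 0 of PMVK covers the RefSeq window only. Of the windows not printed, that of HMGCS1 held 0 boxes and those of IDI1 held 0 and 3. At least 2 boxes stood in a window of 11.5% of the 27305 genes with RefSeq windows, and in 9.5% of all 35116 windows of that length. At least 1 box stood in 32.0% of all windows. The letters TCACNCCAC, a form of the sterol response element, and the looser TCANNCCAC were in none of the 6, and in 0.9% and 3.1% of all windows, both strands being read. GGGCGG, the core of an Sp1 site, was in each of the 6 and in 42.6% of all windows, and the E-box CACGTG was in none of the 6 and in 6.3% of all. These are matches of letters in these windows only and say nothing of binding.

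Depth was 17073654 to 25014437 counts in the UC-764864 group and 16136156 to 24511499 in the DMSO group, and counts of a member in a library ranged from 443 to 20483. In DMSO library UDI0055, unbroken runs of 115 and 3684 rows, X-linked and mitochondrial genes among them, stand at 0 and were left out, and no member lies there. Libraries UDI0052 of the UC-764864 group and UDI0056 of the DMSO group had the smallest share of counts in genes of at least 60% GC, 9.53% and 9.77%, against 11.5% to 13.3% in the other 4. All 8 myeloid markers looked at were above 3 counts in each library, and their summed level was 6539 to 7524 CPM (counts scaled to library size) after UC-764864 and 4240 to 4469 CPM after DMSO. LYZ dominated that sum, at 5848 ± 503 CPM with UC-764864 and 3170 ± 120 CPM in DMSO cells (SD, n = 3 libraries each), and the list did not move as a group. LYZ was called higher, CSF1R was called lower, at 33.9 ± 4.97 CPM with UC-764864 and 50.8 ± 2.61 CPM in DMSO cells, and the other 6 were not called. Of the lymphoid, erythroid and epithelial markers, MS4A1, PF4 and KRT19 had 0 counts throughout, and the summed level of the lymphoid list, which NKG7 dominates, was 31.9 to 44.1 CPM with UC-764864 and 47.8 to 55.6 CPM in DMSO cells. Above 3 counts in every library were 2 of 4 lymphoid and 0 of 3 erythroid or megakaryocyte markers, and the 3 stromal or epithelial markers held summed to 0.368 to 0.777 CPM with UC-764864 and 0.982 to 1.12 CPM with DMSO. The part of these differences in the results was not tested.

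After UC-764864, 7 of the 9 members fell and 0 rose (edgeR quasi-likelihood test, Benjamini-Hochberg adjusted p under 0.05 over 13490 genes). The falls were largest at IDI1 and HMGCS1, then at MVD and SQLE, which were close, and smallest at MVK, ACAT2 and FDPS. With each library's GC trend removed, SQLE was close to MVK, ACAT2 and FDPS, as given in the closing section. In the reported fit PMVK and FDFT1 did not pass. Of all genes tested, 8.13% were called lower and 5.11% higher, together 13.2%, so that rises made up 38.6% of calls. With library size as the only scaling rises were 28.6% of calls, and 7 members were again lower, beside 9.42% of all genes. HMGCS1 and IDI1 fell by at least 2-fold, as did 2.54% of all genes. The median log2 fold change of the members was −0.51, and that of all genes 0.01. For 8 members the 3 UC-764864 libraries all lay below the 3 DMSO libraries, as for 17.0% of all genes, and for PMVK all 3 lay above, as for 19.0% of all genes. Of the counts in the rows kept, the 9 transcripts together took 0.194%, 0.227% and 0.224% in the UC-764864 libraries. In the DMSO libraries they took 0.344%, 0.284% and 0.39%, and the groups did not overlap. In bulk RNA, fewer cells with a transcript and less of it per cell cannot be told apart. Without UDI0055, and without both UDI0052 and UDI0056, 7 members were called lower, beside 12.6% and 8.98% of all genes. Without UDI0051, UDI0053 or UDI0054 the number was 4, beside 2.03%, 3.31% and 3.49% of all genes. It was 5 without UDI0052 and 6 without UDI0056, beside 6.79% and 6.62% of all genes. With every row of UDI0055 kept as deposited it was 1, MVD, beside 0.891% of all genes.

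**Figure D1:**
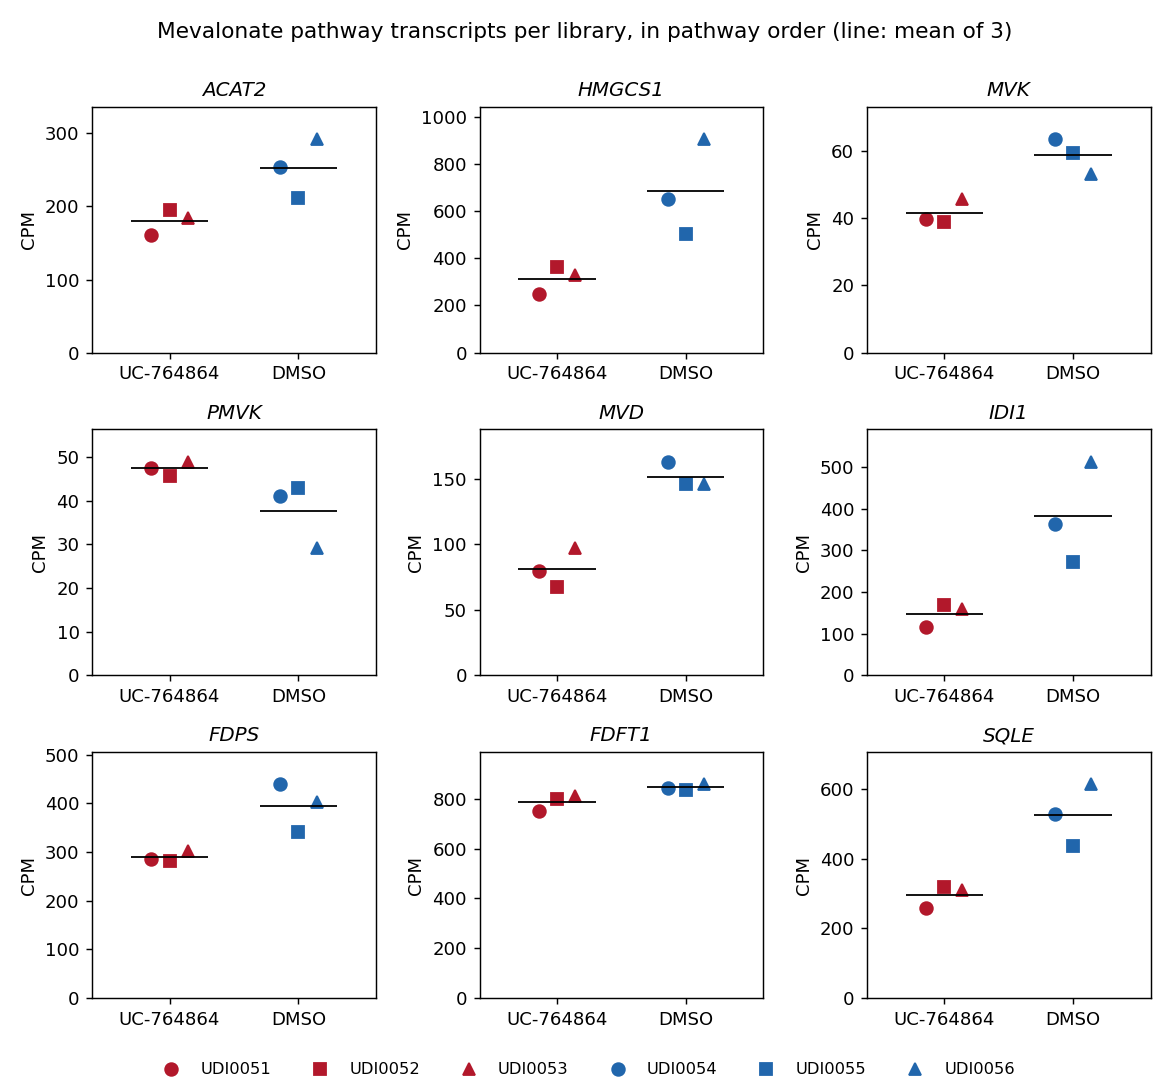
Level of each member in CPM (vertical axes, from 0) in the 3 UC-764864 libraries on the left of each panel and the 3 DMSO libraries on the right, with a line at each group's mean. The UC-764864 points lie below all DMSO points for 8 members and above them for PMVK, and UDI0056 is the highest DMSO library for ACAT2, HMGCS1, IDI1, FDFT1 and SQLE.

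ACAT2, the thiolase that joins acetyl-CoA units, was at 160, 195 and 185 CPM in UC-764864 libraries UDI0051, UDI0052 and UDI0053, against 253, 211 and 292 CPM in DMSO libraries UDI0054, UDI0055 and UDI0056. The groups did not overlap, and the closest libraries were UDI0052 and UDI0055. Mean levels were 180 ± 17.6 CPM with UC-764864 and 252 ± 40.7 CPM in DMSO cells (SD, n = 3 libraries each), a log2 fold change of −0.49 ± 0.14 (SE, as after every fold change; edgeR adjusted p = 0.0386). The call was lost without UDI0051, UDI0053, UDI0054 or UDI0056 (edgeR adjusted p = 0.192, 0.105, 0.118 and 0.0727). ACAT2 and TCP1, a chaperonin subunit gene on the other strand, share 397 exonic bases in GENCODE v29. Whether counting used the strand is not given in the sources used here. The ACAT2 count may thus hold reads of TCP1, which is the more abundant, or lack reads of its own from these bases. TCP1 itself was at 851 ± 57.8 CPM with UC-764864 and 666 ± 68.6 CPM in DMSO cells, a difference on the other side of 0 that did not pass (log2 fold change 0.35 ± 0.11, edgeR adjusted p = 0.0583). It did pass without UDI0055 (edgeR adjusted p = 0.0132), with DESeq2 (DESeq2 adjusted p = 0.0415) and once the GC trend was taken out (limma adjusted p = 0.0123).

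HMGCS1, the synthase that adds a further acetyl unit to form HMG-CoA, had 247, 363 and 330 CPM in the UC-764864 libraries UDI0051 to UDI0053, and 651, 504 and 906 CPM in the DMSO libraries UDI0054 to UDI0056. Every treated value was below every solvent value, and UDI0056 stood well above the other DMSO libraries. HMGCS1 fell 2.19-fold (log2 fold change −1.13 ± 0.20, edgeR adjusted p = 0.00824), and leaving out a library in turn gave −0.88 without UDI0056 to −1.31 without UDI0055, each of the 6 called. The ratio of HMGCS1 to ACAT2 counts within a library was 1.54, 1.86 and 1.79 after UC-764864 and 2.57, 2.39 and 3.10 after DMSO. It was lower in all 3 treated libraries. This and the other count ratios below were chosen after their values were seen. With 3 libraries against 3, an exact two-sided permutation test cannot go below p = 0.1.

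The kinase MVK, which phosphorylates mevalonate, was at 39.7, 38.8 and 45.7 CPM in UDI0051, UDI0052 and UDI0053 after UC-764864 and at 63.5, 59.3 and 53.2 CPM in UDI0054, UDI0055 and UDI0056 after DMSO. The groups were apart, with UDI0056 the lowest of the DMSO libraries here. MVK fell 1.42-fold (−0.51 ± 0.12, edgeR adjusted p = 0.0241). That call was lost without UDI0051, UDI0052, UDI0053 or UDI0054 (edgeR adjusted p = 0.134, 0.0528, 0.0534 and 0.106). MVK starts head to head with MMAB, a gene of cobalamin metabolism on the other strand, and their GENCODE v29 exons share 306 bases. MMAB was at 48.6 ± 3.35 CPM with UC-764864 and 53.1 ± 5.59 CPM in DMSO cells, groups that overlapped, and did not pass (−0.13 ± 0.12, edgeR adjusted p = 0.509) except with the GC trend removed, at −0.25 (limma adjusted p = 0.0231). The count ratio of MVK to MMAB was 0.824, 0.852 and 0.876 in the UC-764864 libraries and 1.11, 1.07 and 1.14 in the DMSO libraries, without overlap.

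PMVK, the next kinase of the route, did not follow the other members. Its levels were 47.5, 45.7 and 48.99 CPM after UC-764864 (UDI0051, UDI0052, UDI0053) and 41.1, 43.0 and 29.2 CPM after DMSO (UDI0054, UDI0055, UDI0056). All 3 UC-764864 libraries were above the DMSO libraries, by little over UDI0055 and by most over UDI0056. The log2 fold change of 0.33 ± 0.15 did not pass (edgeR adjusted p = 0.157), with a 95% interval before adjustment of 0.0015 to 0.65. It was 0.18 without UDI0056 and 0.43 without UDI0055 (edgeR adjusted p = 0.39 and 0.0636). With each library's GC trend removed it was 0.28 and passed (limma adjusted p = 0.031), whereas the limma fit without that correction gave 0.35 and did not (limma adjusted p = 0.139). The ratio of PMVK to MVK counts was 1.20, 1.18 and 1.07 in the UC-764864 libraries UDI0051 to UDI0053, against 0.646, 0.725 and 0.548 in the DMSO libraries UDI0054 to UDI0056. In counts, PMVK was thus above MVK in each treated library and below it in each solvent library.

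MVD, the decarboxylase that yields isopentenyl diphosphate, had 79.4, 67.6 and 97.1 CPM in the UC-764864 libraries UDI0051 to UDI0053, and 163, 146 and 146 CPM in the DMSO libraries UDI0054 to UDI0056. The gap between the groups was wider than the spread within either. MVD fell 1.86-fold (−0.90 ± 0.14, edgeR adjusted p = 0.00487), and it was the only member called under each of the 14 alternative settings run. PMVK to MVD count ratios were 0.593 ± 0.0857 after UC-764864 and 0.249 ± 0.0476 after DMSO (SD, n = 3 libraries each).

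IDI1, the isomerase that makes the allylic starter unit, showed the largest change. In UDI0051, UDI0052 and UDI0053 it was at 115, 170 and 159 CPM after UC-764864, and in UDI0054, UDI0055 and UDI0056 at 363, 272 and 514 CPM after DMSO. The DMSO libraries differed among themselves by more than the treated ones, yet the lowest of them, UDI0055, was above all 3 UC-764864 libraries. IDI1 fell 2.59-fold (−1.37 ± 0.21, edgeR adjusted p = 0.00487), between −1.10 without UDI0056 and −1.57 without UDI0055, and was called whichever of the 6 libraries was left out. Its paralog IDI2, taken from the list of paralogs after its values were seen, had 0 counts in all 6 libraries, where 3 counts correspond to 0.123 to 0.198 CPM.

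FDPS, which extends the units to farnesyl diphosphate, was at 285, 282 and 302 CPM in the UC-764864 libraries UDI0051 to UDI0053, against 439, 340 and 403 CPM in the DMSO libraries UDI0054 to UDI0056. The treated libraries lay close together, and the nearest DMSO library was UDI0055. FDPS fell 1.36-fold (−0.44 ± 0.12, edgeR adjusted p = 0.0319). Without UDI0051, UDI0052, UDI0053 or UDI0054 it was no longer called (edgeR adjusted p = 0.15, 0.0654, 0.0898 and 0.141). Pseudogene copies of FDPS can take some of its reads, but the 8 rows named as such, 1 of them in the rows left out, held at most 8 counts in a library. The IDI1 to FDPS count ratio was 0.404, 0.601 and 0.527 in the treated libraries and 0.826, 0.8 and 1.28 in the solvent libraries. It was not corrected for GC content, which is 42.5% for IDI1 and 54.2% for FDPS. With the GC trend removed, the log2 fold changes lay closer, at −1.22 for IDI1 and −0.58 for FDPS.

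FDFT1, the squalene synthase and the step that commits farnesyl diphosphate to sterols, differed little between the groups and did not pass. UDI0051, UDI0052 and UDI0053 had 751, 802 and 814 CPM after UC-764864, and UDI0054, UDI0055 and UDI0056 had 843, 838 and 859 CPM after DMSO. The treated libraries were all lower, by a margin narrower than the spread among them at its closest point. The log2 fold change was −0.10 ± 0.10 with a 95% interval of −0.32 to 0.11 (edgeR adjusted p = 0.504). It passed with the GC trend removed, at −0.23 (limma adjusted p = 0.0234), and not in the limma fit without that correction (limma adjusted p = 0.493).

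SQLE, the monooxygenase that makes squalene epoxide, was at 260, 318 and 309 CPM in UDI0051, UDI0052 and UDI0053 after UC-764864 and at 529, 436 and 615 CPM in UDI0054, UDI0055 and UDI0056 after DMSO. No library of a group reached the range of the other group. SQLE fell 1.78-fold (−0.83 ± 0.14, edgeR adjusted p = 0.00647) and kept its call whichever of the 6 libraries was left out, at −0.71 without UDI0056 and −0.95 without UDI0055. Counts of SQLE relative to FDFT1 were 0.374 ± 0.0259 in the UC-764864 libraries and 0.621 ± 0.0979 in the DMSO libraries (SD, n = 3 libraries each). These transcripts differ in GC content, 40.6% for SQLE and 49.9% for FDFT1, and the ratio was not corrected for it. With the GC trend removed, the log2 fold changes lay closer, at −0.61 for SQLE and −0.23 for FDFT1.

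Levels of different genes were compared per kilobase of GENCODE v29 exons, as CPM per kb. The length is the union of exons over all transcripts of a gene, 6480 bases for MVK and 1280 for PMVK, so the order depends on it. FDFT1 was the most abundant member in both groups, at 152 ± 6.41 CPM per kb after UC-764864 and 163 ± 2.18 CPM per kb after DMSO (SD, n = 3 libraries each). MVK was the least abundant by this measure, at 6.38 ± 0.58 CPM per kb after UC-764864 and 9.06 ± 0.799 CPM per kb after DMSO. In CPM without length, MVK was above PMVK after DMSO, at 58.7 ± 5.18 against 37.7 ± 7.47 CPM. After UC-764864 it was below PMVK, at 41.4 ± 3.76 against 47.4 ± 1.65 CPM. HMGCS1 and SQLE stood next to FDFT1 in DMSO libraries, at 146 ± 43.3 and 122 ± 20.8 CPM per kb. HMGCS1 was at 138, 107 and 193 CPM per kb in UDI0054, UDI0055 and UDI0056, above SQLE at 123, 101 and 143. SQLE was below FDFT1 in each DMSO library, whereas HMGCS1 was above FDFT1 in UDI0056. After UC-764864 the order below FDFT1 was FDPS at 77.9 ± 2.86, SQLE at 68.7 ± 7.31 and HMGCS1 at 66.6 ± 12.6 CPM per kb, the last pair within their spread. PMVK was at 37.0 ± 1.29 CPM per kb after UC-764864 and 29.5 ± 5.84 CPM per kb after DMSO, and IDI1 at 34.0 ± 6.69 CPM per kb after UC-764864 and 88.1 ± 28.0 CPM per kb after DMSO. Per kb, PMVK was thus above IDI1 in the mean after UC-764864, within the spread, and below it after DMSO.

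The members also differed within groups, and in libraries of both groups the deviations split by GC content. In UDI0056, IDI1, HMGCS1, SQLE and ACAT2, with transcripts of 40.6% to 48.3% GC, were above the mean of the other 2 DMSO libraries by 0.71, 0.66, 0.36 and 0.34 on the log2 CPM scale. PMVK, MVK and MVD, with 59.5% to 63.5% GC, were at −0.53, −0.21 and −0.08 there. UDI0052 showed a similar split against the other UC-764864 libraries, with HMGCS1 at 0.35, IDI1 at 0.33, ACAT2 at 0.18 and SQLE at 0.17, and with MVD at −0.38, MVK at −0.13 and PMVK at −0.08. FDFT1 and FDPS, between them in GC content, stayed within 0.06 of 0 in both UDI0056 and UDI0052. UDI0055 split the other way, with IDI1 at −0.66, HMGCS1 at −0.61, SQLE at −0.39 and ACAT2 at −0.37. PMVK, MVK and MVD were at 0.31, 0.03 and −0.08 there. FDPS, at −0.305 in UDI0055, lay with the members of low GC, and FDFT1 was at −0.02. UDI0054 had FDPS highest, at 0.25, above PMVK, MVK and MVD at 0.21, 0.18 and 0.16. IDI1, HMGCS1, SQLE and ACAT2 were at −0.04, −0.05, 0.03 and 0.03 in UDI0054, and FDFT1 at −0.01. In UDI0051, IDI1, HMGCS1, SQLE and ACAT2 were at −0.52, −0.48, −0.27 and −0.24, and PMVK, MVD and MVK at 0.01, −0.03 and −0.09. Deviations within a group are taken against each other and are not independent. UDI0053 showed no such split: all 9 members were above the other 2 UC-764864 libraries there, MVD by 0.41, MVK by 0.22 and IDI1 by 0.19. These points share their libraries and are 9 genes, so no test was made. A fit without both UDI0052 and UDI0056 still held UDI0051 and UDI0055. It gave log2 fold changes of −1.03 for HMGCS1, −1.24 for IDI1, −0.79 for SQLE and −0.83 for MVD, each called (edgeR adjusted p = 0.00207, 0.00112, 0.00303 and 0.00166). ACAT2, MVK and FDPS were also called in that fit, and PMVK was at 0.17 (edgeR adjusted p = 0.272).

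**Figure D2:**
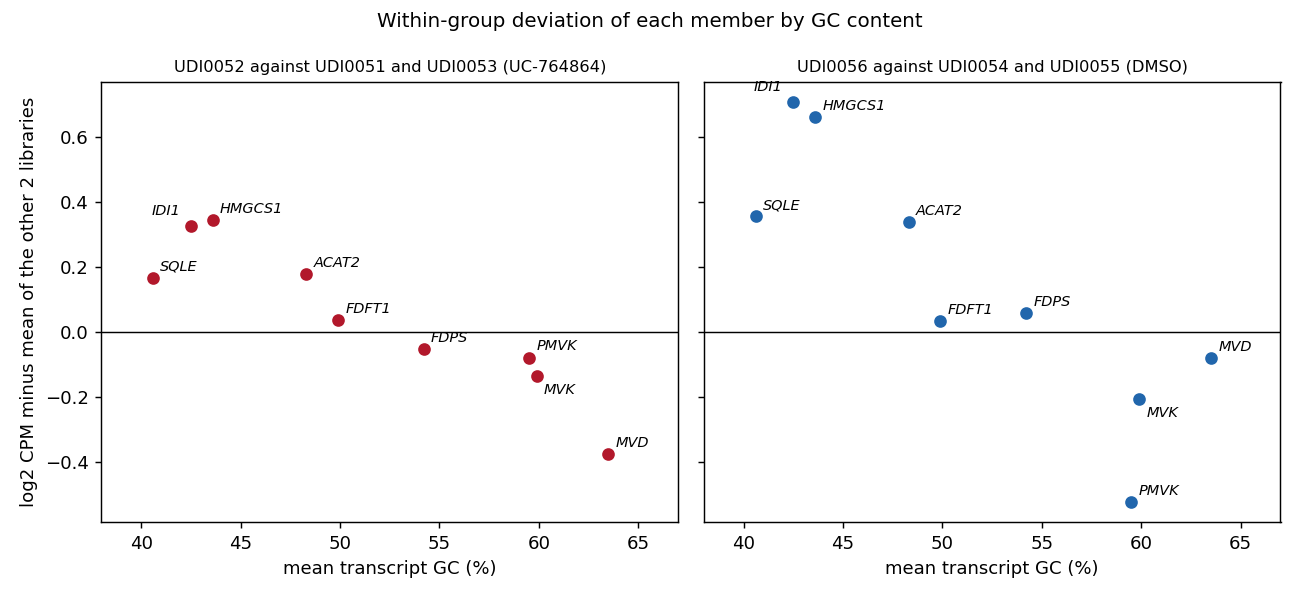
Deviation of each member's log2 CPM in UDI0052 (left, UC-764864) and UDI0056 (right, DMSO) from the mean of the other 2 libraries of its group (vertical axis), against the mean GC content of its transcripts in percent (horizontal axis). Members of up to 48.3% GC lie above 0 in both panels and members of at least 59.5% GC lie below 0.

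Most tested enzymes after squalene fell. Of the 11 on the list, 9 were tested, 6 fell and 0 rose, with a median log2 fold change of −0.53, close to the members' −0.51, and against 8.13% of all genes called lower. MSMO1, a sterol C4 demethylation enzyme, was at 29.04 ± 6.07 CPM with UC-764864 and 112 ± 32.2 CPM in DMSO cells (−1.95 ± 0.21, edgeR adjusted p = 0.00133). SC5D, a sterol desaturase, had a log2 fold change of −1.48 ± 0.21 (edgeR adjusted p = 0.00357), a call lost with every row of UDI0055 kept (edgeR adjusted p = 0.0527). The sterol reductase TM7SF2 and the cyclase LSS fell by 0.67 and 0.62 on the log2 scale (edgeR adjusted p = 0.0125 and 0.0127), and lost their calls without UDI0051 or UDI0054 (edgeR adjusted p from 0.057 to 0.0596). No test of the difference between the 2 stretches of the pathway was made.

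**Figure D3:**
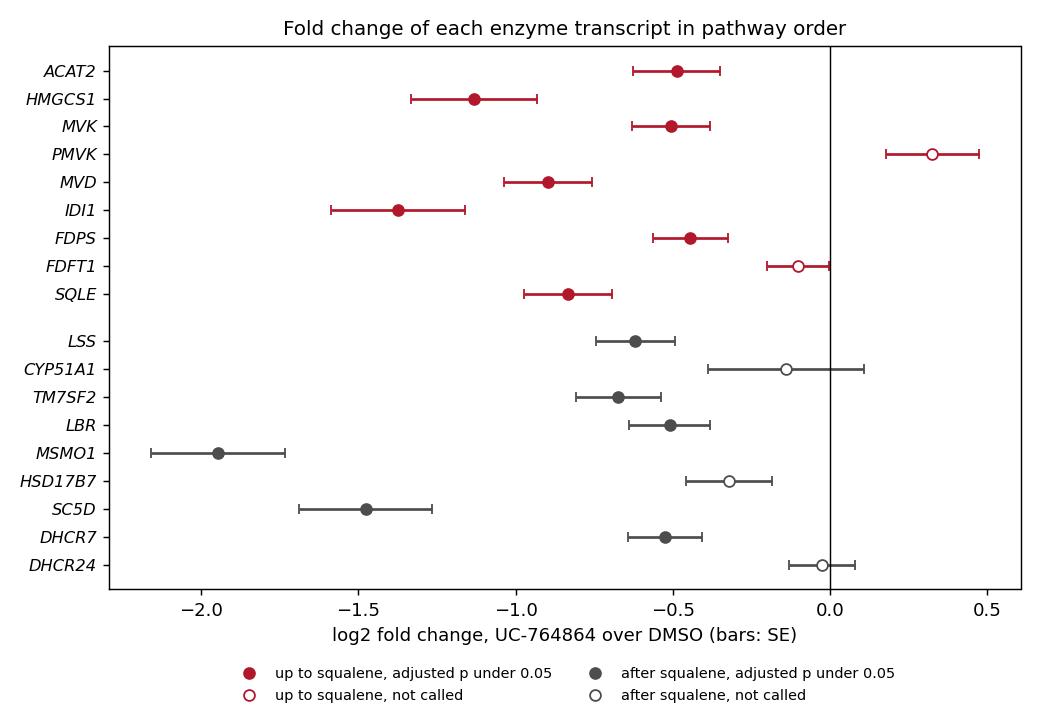
Log2 fold change of UC-764864 over DMSO (horizontal axis, bars: SE) for the 9 members, and below them for 9 tested enzymes that act after squalene, both in pathway order; filled points passed an edgeR adjusted p of 0.05. PMVK is right of 0 and open, FDFT1 is open near 0, and the other 7 members are filled and left of 0.

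Of 17 tested genes in branches that draw on the same isoprenoids without leading to sterols, 1 fell and 1 rose, against 8.13% and 5.11% of all genes, with a median log2 fold change of 0.03. FNTA, a subunit of protein farnesyltransferase, fell by 0.49 ± 0.13 (edgeR adjusted p = 0.029), and DOLK, the dolichol kinase, was at 9.56 ± 1.05 CPM with UC-764864 and 6.50 ± 0.854 CPM in DMSO cells (0.55 ± 0.16, edgeR adjusted p = 0.0403). FNTA was lost without UDI0051, UDI0053, UDI0054 or UDI0056 (edgeR adjusted p from 0.0537 to 0.163), and DOLK on leaving out any library other than UDI0055 (edgeR adjusted p from 0.0591 to 0.21). DOLK was also lost without both UDI0052 and UDI0056 (edgeR adjusted p = 0.066) and when libraries were scaled by size alone (edgeR adjusted p = 0.0502). DHDDS, of dolichol synthesis, and ICMT, which methylates prenylated proteins, had log2 fold changes of 0.36 and 0.32 that did not pass (edgeR adjusted p = 0.063 and 0.115), but passed without UDI0055 (edgeR adjusted p = 0.0341 and 0.0148). DHDDS also passed with DESeq2 (DESeq2 adjusted p = 0.049) and once the GC trend was taken out (limma adjusted p = 0.0406).

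Among genes of SREBP control and sterol transport, 4 of 11 tested fell and 0 rose, against 8.13% and 5.11% of all genes, with a median of −0.33. STARD4, a sterol carrier, was at 42.3 ± 8.87 CPM with UC-764864 and 141 ± 49.6 CPM in DMSO cells (−1.73 ± 0.23, edgeR adjusted p = 0.00299). INSIG1 and INSIG2, which hold the SREBP precursor in the ER when sterols are plentiful, fell by 1.12 and 1.21 on the log2 scale (edgeR adjusted p = 0.00299 and 0.00451), INSIG2 losing its call with every row of UDI0055 kept (edgeR adjusted p = 0.0541). MYLIP, a ubiquitin ligase of lipoprotein receptors, fell by 0.39 (edgeR adjusted p = 0.0338), a call lost on leaving out any library other than UDI0055 (edgeR adjusted p from 0.0516 to 0.195). SREBF2, the SREBP2 gene itself, named after its values were seen, was at 333 ± 35.1 CPM with UC-764864 and 377 ± 42.3 CPM in DMSO cells, groups that overlapped (−0.18 ± 0.12, edgeR adjusted p = 0.336).

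Of 6 tested genes for acetyl-CoA supply and member paralogs, 1 fell and 0 rose, against 8.13% and 5.11% of all genes, with a median of −0.15. ACSS2, which makes cytosolic acetyl-CoA from acetate, was at 67.7 ± 3.99 CPM with UC-764864 and 130 ± 22.4 CPM in DMSO cells (−0.94 ± 0.14, edgeR adjusted p = 0.00402). ACAT1, the mitochondrial paralog of ACAT2, had a log2 fold change of 0.27 ± 0.12, and AACS, of ketone body use, had −0.26. Neither passed (edgeR adjusted p = 0.144 and 0.167), but both did with the GC trend removed (limma adjusted p = 0.00254 and 0.00212). Of 6 fatty acid synthesis genes, 2 fell and 0 rose, against the same 8.13% and 5.11% of all genes, with a median of −0.34. The desaturases FADS2 and SCD fell by 0.53 and 0.44 on the log2 scale (edgeR adjusted p = 0.0178 and 0.0211), and were lost without UDI0051 or UDI0054 (edgeR adjusted p = 0.102 and 0.0848 for FADS2, 0.147 and 0.0599 for SCD), and SCD also without UDI0053 (edgeR adjusted p = 0.078). ACACA, the acetyl-CoA carboxylase, had 0.37 ± 0.12, and FADS1 −0.32 ± 0.11, and neither passed (edgeR adjusted p = 0.0623 and 0.0719) except without UDI0055 (edgeR adjusted p = 0.0152 and 0.0317), with DESeq2 (DESeq2 adjusted p = 0.0406 and 0.033), once the GC trend was taken out (limma adjusted p = 0.022 and 0.00652) and, for FADS1, with library size as the only scaling (edgeR adjusted p = 0.0492).

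The mean profile of the members over the 6 libraries, as log2 CPM centred on each gene's mean, was −0.43, −0.27 and −0.20 in UDI0051, UDI0052 and UDI0053 after UC-764864, and 0.35, 0.14 and 0.40 in UDI0054, UDI0055 and UDI0056 after DMSO. Members departed from it by a root mean square of 0.098 for ACAT2, 0.11 for FDPS, 0.141 for SQLE and 0.144 for MVK, up to 0.437 for IDI1 and 0.533 for PMVK. Among 8802 other genes that averaged 10 CPM or more, the closest were RAB37, SNHG5, TMEM60, APOC1 and AIG1, at 0.032 to 0.053. Closeness here is a description over 6 libraries and was not tested.

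**Figure D4:**
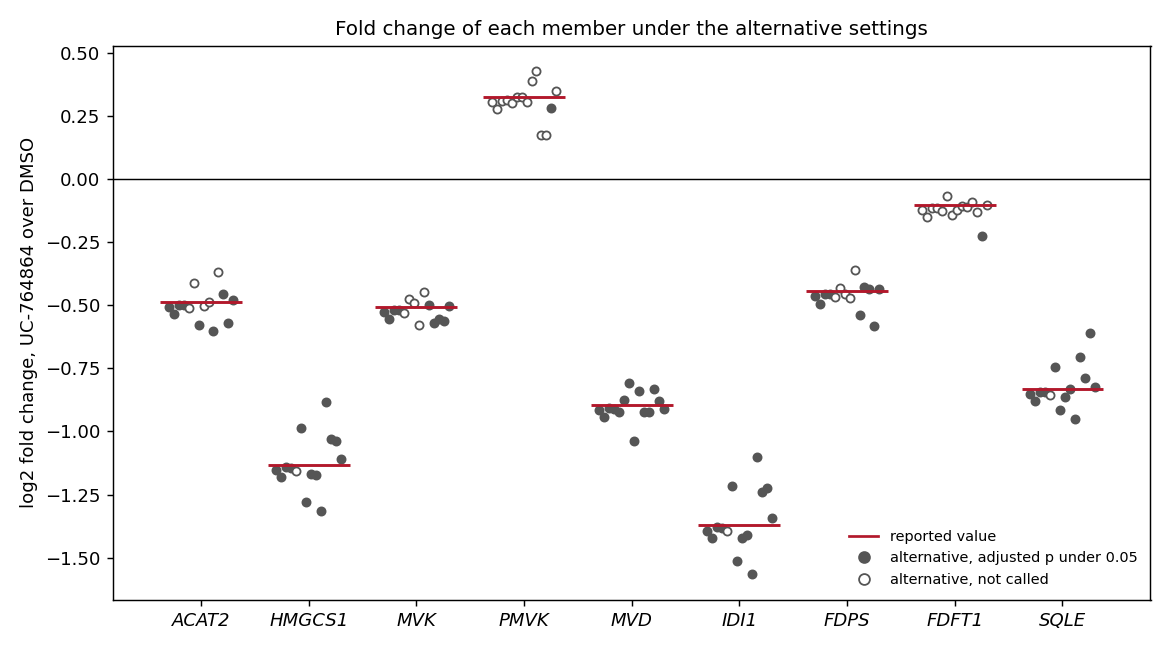
Log2 fold change of UC-764864 over DMSO (vertical axis) of each member, with a line at the reported value and a point for each of 14 alternative settings, filled where the adjusted p was under 0.05. No point crosses 0, MVD is filled throughout, and PMVK and FDFT1 are filled only where the GC trend was removed.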

How the data were processed

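Poly(A) libraries were sequenced in pairs of 75 bp reads, per the labels' protocols. The table the authors deposited holds raw counts per gene symbol, and the submitters' processing notes name FastQC 0.11.7, HISAT2 2.0.5, featureCounts 1.5.2 and GRCh37 without roles. Neither the annotation release nor whether counting used the strand is given in the sources used here. A deposited table ties each column to a treatment and gives no replicate number.

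Rows in unbroken runs of 0 in UDI0055 (115 and 3684 rows, a run having at least 10 rows that hold 50 or more counts in every other library) were read as missing, leaving 52839. Chi-square per degree of freedom between libraries was 4.69 to 85.4, so none was a duplicate, and all 6 were kept. R 4.3.3 and edgeR 4.0.16 were used with filterByExpr, TMM factors (0.978 to 1.03), glmQLFit and glmQLFTest, treatment as the only term, and Benjamini-Hochberg over 13490 genes. SE is the log2 fold change over the square root of F. CPM uses TMM-scaled library sizes, and log2 CPM profiles a prior count of 2. DESeq2 1.42.0 and limma 3.58.1 served as alternatives. Gene GC content and exon lengths came from GENCODE v29 on GRCh38, a later build than that of the files, and promoters from RefSeq. Simulated data of 13490 genes, each drawn independently, had 200 changed genes. There the fit called 83.7% of genes changed by 1 and 23.7% of genes changed by 0.5 on the log2 scale. Floors (3 counts) cover counting error only, as reads carry no molecular identifiers.

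Besides all members, the named genes are MMAB and TCP1, copies of members, up to 4 genes per list by p, and the 5 closest profiles; some genes are not reported here. Members, lists and tests were chosen with earlier results of these data known.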

Additional observations from a re-analysis of the deposited data

How the results depend on the processing

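No member changed direction under any of the 14 alternatives: other scaling (RLE factors, library size only), no filter, DESeq2, every row kept, each library left out, UDI0052 and UDI0056 left out, the GC trend removed, and limma without that correction, the last chosen after seeing the data. With every row kept as deposited, 1 member, MVD, was called lower, the other 6 then having edgeR adjusted p from 0.0553 to 0.0931. In that fit 22 genes in all were higher and 125 lower, 0.157% and 0.891% of those tested. Of the called genes named from the lists, MSMO1, STARD4, INSIG1 and ACSS2 kept their calls then and the others lost them (edgeR adjusted p from 0.0527 to 0.0909). Without a filter, 1676 genes were lower. Removing the GC trend gave 2065 higher and 1942 lower genes among the 11647 with a GC value (641 and 985 of these in the reported fit), by limma, so that 51.5% of calls were rises, against 40.2% by limma without that correction (722 higher, 1072 lower), 38.6% as reported and 28.6% with library size only (508 higher, 1271 lower). With the GC trend removed 1 member, PMVK, was higher and 8 were lower, beside 17.7% and 16.7% of the genes with a GC value. Log2 fold changes were then −1.22 for IDI1, −1.04 for HMGCS1 and −0.88 for MVD. SQLE was at −0.61 there, near FDPS, ACAT2 and MVK at −0.58, −0.57 and −0.56, whereas limma without that correction gave −0.82 for SQLE. Leaving out a library in turn gave 62 to 1525 genes higher (0.452% to 11.1%) and 278 to 1729 lower (2.03% to 12.6%). Of the members, 0 were higher and 4 to 7 lower. The fewest came without UDI0051 (62 and 278) and the most without UDI0055 (1525 and 1729). Counts were 295 and 947 without UDI0052, 166 and 460 without UDI0053, and 94 and 475 without UDI0054. The members' median stayed between −0.47 and −0.60 on the log2 scale. The cause of these shifts was not tested. Of single comparisons, 18 member values and 53 values of other named genes lost their call, and 2 and 18 gained one. No paired analysis was possible because the columns carry no replicate number. The simulation called 23.7% of genes changed by 0.5 on the log2 scale, and smaller changes were not simulated. It changed 200 of 13490 genes, a smaller share than the 13.2% called in the data. The adjusted p depends on that share, so the 23.7% does not carry over to these data.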

Other observations

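NSDHL and EBP, X-linked enzymes of sterol synthesis after squalene, are among the rows at 0 in UDI0055 and have values in the other 5 libraries only, in a fit chosen after seeing the data. NSDHL was at 48.2, 48.7 and 47.0 CPM in UDI0051, UDI0052 and UDI0053 after UC-764864, against 49.3 and 47.6 CPM in UDI0054 and UDI0056 after DMSO (log2 fold change −0.02 ± 0.12, edgeR adjusted p = 0.939). EBP was at 106, 98.1 and 110 CPM after UC-764864, against 133 and 119 CPM after DMSO (−0.27 ± 0.12, edgeR adjusted p = 0.119). Neither passed.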
